A study of Mus musculus with 32 samples.

Results

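Hepatic expression of the complement system was measured in male C57Bl/6J offspring mice whose parents had received a low-fat (LF) or a high-fat (HF) diet. The set comprised 31 complement genes, listed by name for their place in the cascade, and each of the 31 was found in the table of 21115 probe sets, which holds 1 probe set per gene. The LF diet was a chow with 9% and the HF diet had 45% of its energy from fat. Both parents were fed it from 6 weeks before mating until the end of lactation. From weaning, every offspring received the HF diet, so the groups were LF/HF and HF/HF, named after the parental and then the offspring diet, and no group of the series ate an LF diet after weaning. Livers of 7 LF/HF and 7 HF/HF offspring of 12 weeks and of 9 LF/HF and 9 HF/HF offspring of 28 weeks were hybridized to whole transcript arrays, 1 array per mouse. Litters are not given in the sources used here, and p-values may be too small where littermates entered the same group.

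Complement is a cascade of plasma proteins that tag, inflame around and lyse target cells, and the liver makes most of its circulating components. It is started by C1q bound to antibody (the classical pathway), by mannose-binding lectins bound to sugars (the lectin pathway) or by factor B with factor D (the alternative pathway). These routes meet at C3, and cleavage of C5 then starts assembly of the membrane attack complex from C5b, C6, C7, C8 and C9. Hepatocytes secrete most of these proteins, while C1q, properdin and the receptors come mainly from macrophages and other nonparenchymal cells.

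Values below are log2 intensities normalized by the robust multichip average, and a difference of 1 is a 2-fold change. A gene was called when it met the criterion of the study, an unadjusted P under 0.05 with a fold change over 1.2 in limma, and adjusted p-values are those of Benjamini and Hochberg over all 21115 probe sets. The median intensity of an array, on the linear scale, ranged from 8.37 to 9.39 in the 12-week and from 8.41 to 8.89 in the 28-week mice. The array names fall into 2 series, and each series held mice of all 4 groups. The hepatocyte markers Alb, Ttr, Apoa1, Hnf4a, Tat and Serpina1c were measured in every array, with summed intensities of 34058 to 38086. Replicate 1 of the 12-week LF/HF, replicate 3 of the 12-week HF/HF and replicate 8 of the 28-week LF/HF offspring also carried skeletal muscle markers, with a sum of up to 5273 over 6 genes, whereas no 28-week HF/HF mouse exceeded 52.2. Calls that ended or arose when these 3 mice were left out together are named with each gene.

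More complement genes were called by age than by the parental diet. The older mice had also eaten the HF diet for longer, so age and time on that diet cannot be told apart. Of the 31 genes, 1 was called between HF/HF and LF/HF offspring at 12 weeks, where 2.92% of all probe sets were, and 0 at 28 weeks, where 2.15% were. Between 28 and 12 weeks, 6 were called in LF/HF offspring (7.22% of all probe sets) and 11 in HF/HF offspring (4.1% of all probe sets). Of the 6, 5 were lower at 28 weeks, a direction in which 3.92% of all probe sets were called. Of the 11, 10 were lower, against 2.33% of all probe sets. The median of the 31 log2 fold changes with age was -0.15 in LF/HF and -0.15 in HF/HF offspring, while the median over all probe sets was 0.012 and 0.0032. The mean of the 31 log2 values per mouse was 8.47 ± 0.062 in LF/HF and 8.46 ± 0.096 in HF/HF offspring at 12 weeks (SD, n = 7 each), and 8.33 ± 0.11 and 8.31 ± 0.079 at 28 weeks (SD, n = 9 each). No test was made of this mean. The median of the 31 values per mouse, in place of their mean, gave an age difference of 0.03 in LF/HF offspring, opposite in sign to the -0.14 of the mean. Of 10 genes of the hepatic acute-phase response outside the set, 9 were lower with age in HF/HF offspring and 4 were called lower. In LF/HF offspring 5 were lower and 5 higher, with 1 called, higher at 28 weeks. An adjusted p under 0.05 in limma was reached by 1 of the 10 in LF/HF and by 0 in HF/HF offspring. The part of these genes in the complement values was not tested. In liver homogenates, fewer cells of a type and less RNA per cell cannot be told apart.

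In both age comparisons, which share no mice although limma took their spread from all 32 arrays, 5 genes were called. They were C2, C6, C8a, C8b and C9, and each was lower at 28 weeks in LF/HF and in HF/HF offspring. They made up 5 of the 6 genes called in LF/HF and 5 of the 11 called in HF/HF offspring. How many of all probe sets were called in both age comparisons was not counted, so no share stands beside the 5. Within the array series alone, C8b and C9 kept all their calls. In series 2 alone the HF/HF calls of C2 and C6 ended, and in series 1 alone the LF/HF call of C8a ended.

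**Figure D1:**
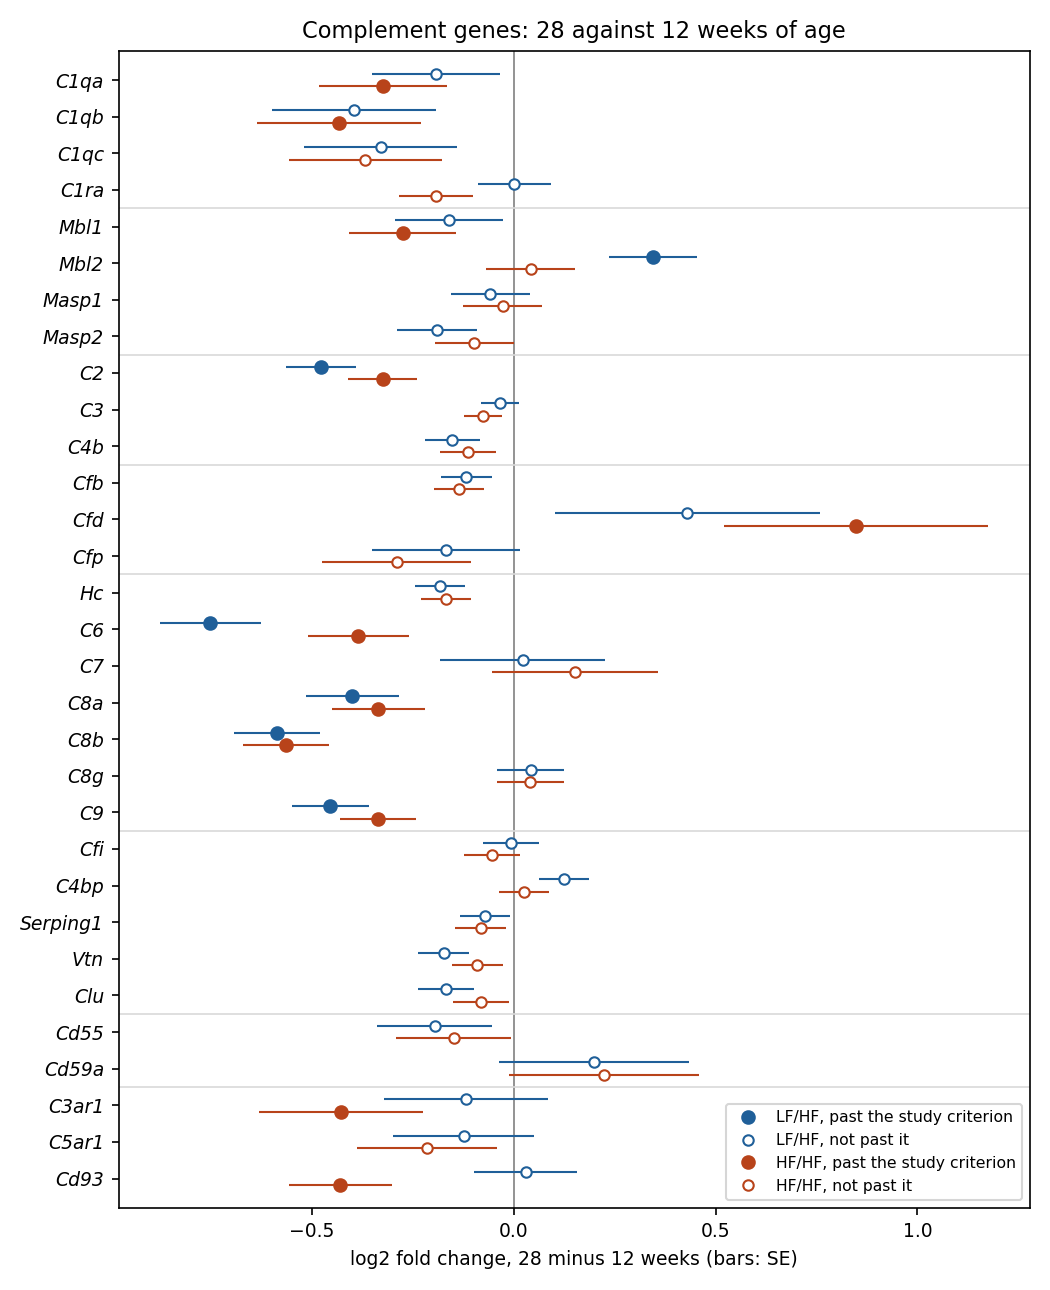
Log2 fold change from 12 to 28 weeks of the 31 complement genes (vertical axis, grouped by role) in LF/HF (blue) and HF/HF (red) offspring, with bars for the standard error and filled points for genes past the criterion of the study. C2, C6, C8a, C8b and C9 are filled to the left of 0 in both diets, and C8g stays next to 0 at 0.04 in each.

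The terminal pathway held 4 of these 5 genes. C6 joins C5b as the attack complex starts to form. Its log2 intensity was 8.80 to 9.28 (median 9.03) in the 12-week LF/HF and 7.76 to 8.72 (median 8.29) in the 28-week LF/HF offspring. In HF/HF offspring it was 8.69 to 9.18 (median 8.87) at 12 weeks and 7.92 to 8.83 (median 8.55) at 28 weeks. Every 28-week LF/HF mouse was below every 12-week LF/HF mouse, while the HF/HF groups overlapped. The log2 fold change with age was -0.75 (SE 0.12, adjusted p = 0.00115) in LF/HF and -0.39 (SE 0.12, adjusted p = 0.399) in HF/HF offspring from limma.

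C8b encodes the beta chain of C8, the component that first inserts into the membrane together with the alpha chain. C8b ranged at 12 weeks from 10.77 to 11.17 (median 10.95) in LF/HF offspring and from 10.45 to 11.05 (median 10.80) in HF/HF offspring. At 28 weeks it was 9.78 to 10.59 (median 10.44) and 9.74 to 10.68 (median 10.23). The LF/HF ages did not overlap, and each of the 9 HF/HF mice of 28 weeks was below the 12-week mean. C8b had the smallest adjusted p of the 31 genes with age in HF/HF offspring, with a log2 fold change of -0.56 (SE 0.11, adjusted p = 0.0223 from limma), and -0.59 (SE 0.11, adjusted p = 0.00301) in LF/HF offspring.

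C8a encodes the alpha chain. C8a ranged at 12 weeks from 10.15 to 10.49 (median 10.40) in LF/HF offspring and from 10.19 to 10.50 (median 10.34) in HF/HF offspring, and 9.42 to 10.34 (median 10.002) and 9.25 to 10.43 (median 10.02) at 28 weeks. Most 28-week mice lay below the 12-week mean, 9 of 9 in LF/HF and 8 of 9 in HF/HF, but the ages overlapped in both diets. Its log2 fold change was -0.40 (SE 0.12, adjusted p = 0.102) in LF/HF and -0.34 (SE 0.12, adjusted p = 0.423) in HF/HF offspring from limma. The HF/HF value rested in part on replicate 2 of 28 weeks, the lowest mouse at 9.25, without which it was -0.24 and under the 1.2-fold limit.

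C9 forms the pore that closes the complex. C9 ranged at 12 weeks from 10.85 to 11.07 (median 10.97) in LF/HF offspring and from 10.81 to 11.21 (median 10.98) in HF/HF offspring, and 10.31 to 10.75 (median 10.49) and 10.20 to 11.10 (median 10.68) at 28 weeks. As for C6 and C8b, the LF/HF ages did not overlap, which held for 30 of all probe sets in this direction (0.142%). The log2 fold change was -0.46 (SE 0.10, adjusted p = 0.0114) in LF/HF and -0.34 (SE 0.10, adjusted p = 0.295) in HF/HF offspring from limma. Adjusted p-values under 0.05 were reached by 4 complement genes with age in LF/HF offspring (C2, C6, C8b and C9), where 0.786% of all probe sets reached them, and by 1, C8b, in HF/HF offspring, where 0.0474% did.

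C8g and C7 were not called. C8g encodes the gamma chain, a lipocalin bound to the alpha chain. C8g was 10.72 to 11.11 at 12 weeks and 10.54 to 11.07 at 28 weeks in LF/HF, and 10.43 to 11.15 and 10.67 to 11.01 in HF/HF offspring, and its age groups lay over each other. The log2 fold change was 0.04 in both diets, with 95% intervals of -0.13 to 0.21. Relative to C8g on the same array, C8b was lower at 28 weeks by a difference of -0.63 in LF/HF and -0.60 in HF/HF offspring, and C8a by -0.44 and -0.38, and in each of the 4 ratios 9 of 9 mice of 28 weeks were below the 12-week mean. These ratios were chosen after the values were seen. An exact permutation test over mice was run on each, and its p-values are left out because of that choice. C7, the component between C6 and C8, ranged from 2.93 to 4.65 over all mice, and its log2 fold changes of 0.02 and 0.15 had 95% intervals of -0.39 to 0.44 and -0.27 to 0.57.

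Hc, the mouse gene of C5, is the source of the anaphylatoxin C5a and of C5b. Hc ranged at 12 weeks from 10.32 to 10.49 (median 10.40) in LF/HF offspring and from 10.37 to 10.58 (median 10.47) in HF/HF offspring, and 10.06 to 10.35 (median 10.20) and 10.03 to 10.68 (median 10.28) at 28 weeks. Its log2 fold changes with age, -0.18 (SE 0.06) and -0.17 (SE 0.06), stayed under the 1.2-fold limit, with adjusted p = 0.181 and 0.468 from limma. Of 6 hepatocyte markers, 4 were lower with age in each diet, with medians of -0.04 in LF/HF and -0.02 in HF/HF offspring. Albumin differed by -0.01 and -0.0013, and the only marker called was the transcription factor Hnf4a in LF/HF offspring, at -0.41 (adjusted p = 0.172 from limma). There 3.92% of all probe sets were called lower. The part of these markers in the terminal genes was not tested.

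**Figure D2:**
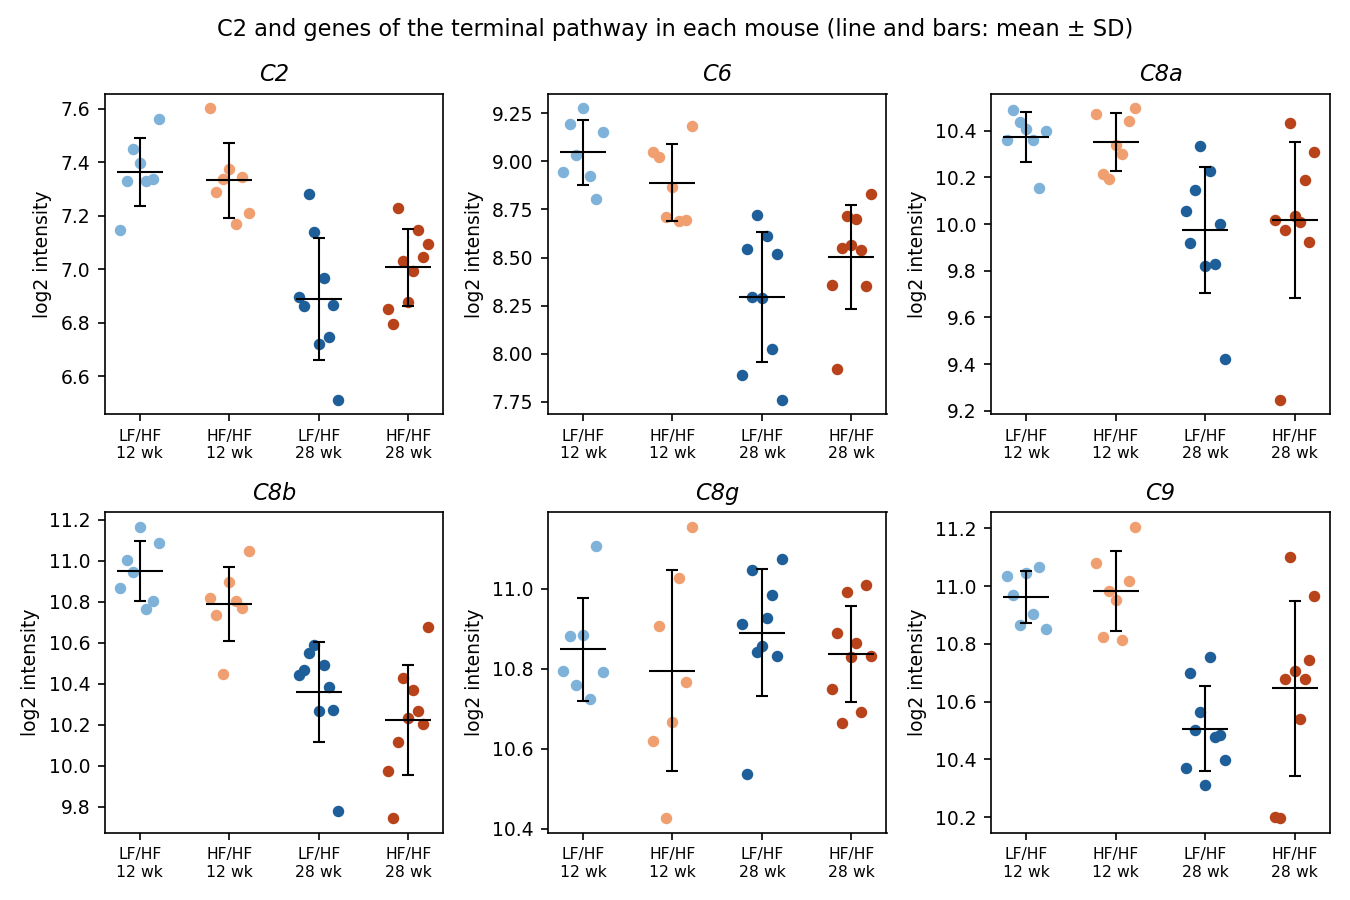
Log2 intensity of C2 and of the terminal genes C6, C8a, C8b, C8g and C9 in each mouse (points), by group on the horizontal axis, with a line at the mean and bars for 1 SD (n = 7 mice per group at 12 weeks and 9 at 28 weeks). All but C8g lie lower at 28 weeks in both diets, and the vertical scale differs between panels.

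The promoters of the terminal genes that were lower with age are shown because C6, C8a, C8b and C9 moved together in both diets. C6 and C9 start 1718 kb apart on chromosome 15, with C7 between them, and C8a and C8b start 110 kb apart on chromosome 4 on opposite strands. Each run below is 250 bases before and 50 bases from the RefSeq start in GRCm38.p6, on the strand of the gene, in lower case with motif matches in capitals. The motifs searched, on both strands, were TTCNNNGAA (STAT), TTGCNNAA (C/EBP), GGANTTTCC (NF-kB), GTTAATNAT (HNF1), GAGGAAGT (PU.1) and GAAANNGAA (interferon response).
C6, chr15:4726960-4727259, plus strand: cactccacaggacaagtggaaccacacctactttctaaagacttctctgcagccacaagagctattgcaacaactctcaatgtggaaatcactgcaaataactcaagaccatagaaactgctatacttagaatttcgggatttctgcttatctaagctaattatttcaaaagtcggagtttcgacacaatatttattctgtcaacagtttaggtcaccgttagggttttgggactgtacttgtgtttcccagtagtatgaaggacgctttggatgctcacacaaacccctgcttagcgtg
C8a, chr4:104876349-104876648, minus strand: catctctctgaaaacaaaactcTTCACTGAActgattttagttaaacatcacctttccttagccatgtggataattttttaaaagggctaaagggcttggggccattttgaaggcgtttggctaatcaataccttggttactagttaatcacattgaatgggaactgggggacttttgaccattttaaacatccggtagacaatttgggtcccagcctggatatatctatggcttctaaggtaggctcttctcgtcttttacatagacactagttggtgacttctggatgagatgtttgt
C8b, chr4:104766067-104766366, plus strand: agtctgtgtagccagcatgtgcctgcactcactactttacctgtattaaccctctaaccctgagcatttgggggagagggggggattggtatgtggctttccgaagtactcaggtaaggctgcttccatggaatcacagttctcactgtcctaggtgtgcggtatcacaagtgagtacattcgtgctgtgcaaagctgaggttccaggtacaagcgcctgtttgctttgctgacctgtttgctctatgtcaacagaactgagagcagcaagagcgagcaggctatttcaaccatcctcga
C9, chr15:6445096-6445395, plus strand: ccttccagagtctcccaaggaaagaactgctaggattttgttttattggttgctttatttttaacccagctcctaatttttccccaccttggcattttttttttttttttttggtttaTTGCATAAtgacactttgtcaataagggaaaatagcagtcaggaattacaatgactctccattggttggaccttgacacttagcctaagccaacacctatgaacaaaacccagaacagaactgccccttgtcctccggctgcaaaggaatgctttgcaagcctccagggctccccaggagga
C8a held a STAT match 228 bases before its start, and C9 a C/EBP match 132 bases before its start. C6 and C8b held none of the 6 motifs in this window. Of 32851 promoters in the table, 8.3% held the STAT and 10.8% the C/EBP motif, 1.25% the NF-kB, 0.801% the HNF1, 3.2% the PU.1 and 8.56% the interferon response motif. The table held 23 promoters for 22 of the 31 complement genes, of which 5 held the STAT, 3 the C/EBP, 0 the NF-kB, 2 the HNF1, 1 the PU.1 and 4 the interferon response motif. These matches describe the letters and do not show binding.

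C2, C3 and C4b act between recognition and the terminal steps. C2 is the serine protease of the classical and lectin C3 convertase. C2 ranged at 12 weeks from 7.15 to 7.56 (median 7.34) in LF/HF offspring and from 7.17 to 7.60 (median 7.34) in HF/HF offspring, and 6.51 to 7.28 (median 6.87) and 6.80 to 7.23 (median 7.03) at 28 weeks. All 9 mice of 28 weeks were below the 12-week mean in each diet, with a log2 fold change of -0.48 (SE 0.09, adjusted p = 0.00301) in LF/HF and -0.33 (SE 0.09, adjusted p = 0.242) in HF/HF offspring from limma.

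C3 is the protein at which all pathways meet, and its RNA signal varied little. C3 ranged at 12 weeks from 12.32 to 12.56 (median 12.45) in LF/HF offspring and from 12.43 to 12.63 (median 12.48) in HF/HF offspring, and 12.31 to 12.53 (median 12.37) and 12.27 to 12.52 (median 12.46) at 28 weeks. The groups overlapped throughout, and the log2 fold changes with age were -0.03 (95% interval -0.13 to 0.06) in LF/HF and -0.08 (95% interval -0.17 to 0.02) in HF/HF offspring. C4b is the partner of C2 in the convertase. C4b ranged at 12 weeks from 10.20 to 10.39 (median 10.34) in LF/HF offspring and from 10.19 to 10.54 (median 10.39) in HF/HF offspring, and 9.98 to 10.41 (median 10.11) and 9.97 to 10.46 (median 10.35) at 28 weeks. Its age difference of -0.15 in LF/HF offspring (SE 0.07, adjusted p = 0.357 from limma) was under the 1.2-fold limit, and that in HF/HF offspring was -0.11 (SE 0.07). C4b and its near-identical copy C4a can share probe signal.

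In the alternative pathway Cfd was the 1 gene called. Cfd encodes factor D, or adipsin, the protease that activates factor B and a product mainly of fat cells. Cfd ranged at 12 weeks from 2.47 to 5.37 (median 2.94) in LF/HF offspring and from 2.45 to 3.25 (median 2.57) in HF/HF offspring, and 2.78 to 4.38 (median 3.69) and 2.78 to 5.37 (median 3.42) at 28 weeks. All 9 HF/HF mice of 28 weeks were above the 12-week mean, and the log2 fold change was 0.85 (SE 0.33, adjusted p = 0.506 from limma). The call ended in array series 1 alone. The 12-week HF/HF values of Cfd lay near or below the median log2 intensity of their arrays, 3.07 to 3.23, and no background was analysed, so the size of this difference is uncertain. In LF/HF offspring it was 0.43 (SE 0.33) and not called, and 0.79 (SE 0.27) and past the criterion without replicate 1 of 12 weeks, the mouse at 5.37 that also carried muscle markers. The LF/HF call also arose without all 3 mice with muscle markers and in array series 2 alone. That mouse also had the highest summed intensity of the adipocyte markers, 34.1, where the 12-week HF/HF offspring had 18.3 to 21.1. Replicate 7 of the 28-week HF/HF offspring, with the same Cfd value of 5.37, had a mean log2 adipocyte marker value of 2.28, inside the range of its group. With age, 4 of 4 adipocyte markers (Adipoq, Plin1, Lep and Retn) were lower in LF/HF offspring. Plin1 was called there at -0.37, where 3.92% of all probe sets were called lower. In HF/HF offspring 2 of 4 were lower with 0 called, where 4.1% of all probe sets were. The mean log2 value of the 4 markers was 2.02 to 2.97 over all mice, under the array medians of 3.07 to 3.23. The size of these marker differences is therefore uncertain too. The part of the adipocyte markers in Cfd was not tested. Factor B (Cfb) and properdin (Cfp), which stabilizes the convertase, were not called in any comparison with all mice. Cfp was called with age in HF/HF offspring without replicate 1 of 12 weeks or replicate 2 of 28 weeks. Cfb was lower with age by -0.14 in HF/HF offspring (adjusted p = 0.661 from limma), under the 1.2-fold limit.

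In the classical pathway, C1qa, C1qb and C1qc encode the chains of C1q and are made in the liver mainly by Kupffer cells. C1qa ranged at 12 weeks from 6.39 to 7.21 (median 6.88) in LF/HF offspring and from 6.46 to 7.59 (median 6.76) in HF/HF offspring, and 6.18 to 7.23 (median 6.51) and 6.11 to 6.89 (median 6.48) at 28 weeks. C1qb was 6.78 to 7.66 (median 7.18) and 6.75 to 7.87 (median 7.08) at 12 weeks, and 6.08 to 7.49 (median 6.94) and 5.92 to 7.38 (median 6.61) at 28 weeks. C1qc was 5.73 to 6.53 (median 6.26) and 5.74 to 7.01 (median 6.12) at 12 weeks, and 5.04 to 6.38 (median 5.81) and 5.20 to 6.22 (median 5.88) at 28 weeks. The ages overlapped for all 3 chains in both diets, and replicate 3 of the 12-week HF/HF offspring was the highest mouse of its group for each.

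With age, C1qa and C1qb were called in HF/HF offspring, at -0.33 (SE 0.16, adjusted p = 0.687) and -0.43 (SE 0.20, adjusted p = 0.661) from limma, while C1qc was at -0.37 (SE 0.19) and not called. In LF/HF offspring the values were -0.19 (SE 0.16), -0.40 (SE 0.20) and -0.33 (SE 0.19), none called with all mice. C1qb was called in LF/HF offspring without replicate 1 of 12 weeks, at -0.44 (SE 0.21), without replicate 2 of 12 weeks or replicate 6 of 28 weeks, without replicate 3 of the 12-week HF/HF offspring, without the 3 mice with muscle markers, with array weights, with only the arrays compared and in series 2 alone. C1qc was called there without replicate 2 of 12 weeks or replicates 1 or 6 of 28 weeks and in series 2 alone, and in HF/HF offspring without replicates 1, 2 or 5 of 12 weeks or replicates 2 or 3 of 28 weeks and in series 2 alone. The difference between the diets was -0.13 for C1qa (95% interval -0.59 to 0.32), -0.04 for C1qb (-0.62 to 0.55) and -0.04 for C1qc (-0.58 to 0.51). The calls were narrow. That of C1qa ended without any of 10 mice, replicates 3, 4, 6 and 7 of 12 weeks and 4 to 9 of 28 weeks of HF/HF, with values of -0.33 to -0.19. That of C1qb ended without any of 8, replicates 3, 6 and 7 of 12 weeks and 4, 5, 6, 7 and 9 of 28 weeks, with values of -0.42 to -0.31. Without the 3 mice with muscle markers both calls in HF/HF offspring ended, with C1qa at -0.19 and C1qb at -0.31. Within the array series, C1qb in HF/HF offspring was at -0.09 (SE 0.27) in series 1 and -0.72 (SE 0.25) in series 2, and C1qc at -0.09 (SE 0.28) and -0.59 (SE 0.20). In LF/HF offspring C1qb was at -0.13 (SE 0.28) and -0.61 (SE 0.24). The HF/HF call of C1qa ended in each series alone, and that of C1qb in series 1 alone. The difference between the series was not tested.

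Of 9 Kupffer cell and macrophage markers, 9 had lower values with age in HF/HF offspring and 3 were called lower, where 2.33% of all probe sets were: Adgre1 at -0.53, Folr2 at -0.51 and Clec4f, a Kupffer cell lectin, at -0.33. In LF/HF offspring 8 had lower values and 1, Csf1r, was called lower at -0.34, where 3.92% of all probe sets were. The summed intensity of the 9 markers was 584 to 1494.5 (median 769.5) at 12 weeks and 592 to 867 (median 667) at 28 weeks in HF/HF, and 717 to 1278 (median 790.5) and 578 to 1017 (median 711) in LF/HF offspring. Their part in the C1q values was not tested. C1ra, a protease of the C1 complex that hepatocytes make, ranged at 12 weeks from 8.81 to 9.42 (median 8.88) in LF/HF offspring and from 8.86 to 9.33 (median 8.97) in HF/HF offspring, and 8.69 to 9.43 (median 8.95) and 8.67 to 8.99 (median 8.85) at 28 weeks. With age C1ra differed by 0.001 in LF/HF and by -0.19 in HF/HF offspring (SE 0.09, adjusted p = 0.661 from limma), under the 1.2-fold limit. It was called in HF/HF offspring in array series 2 alone.

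Of the C1q genes, C1qb and C1qc have promoters in the table, shown because these chains lay close together across mice. Both genes lie on the minus strand of chromosome 4, and the rules above apply.
C1qb, chr4:136886151-136886450, minus strand: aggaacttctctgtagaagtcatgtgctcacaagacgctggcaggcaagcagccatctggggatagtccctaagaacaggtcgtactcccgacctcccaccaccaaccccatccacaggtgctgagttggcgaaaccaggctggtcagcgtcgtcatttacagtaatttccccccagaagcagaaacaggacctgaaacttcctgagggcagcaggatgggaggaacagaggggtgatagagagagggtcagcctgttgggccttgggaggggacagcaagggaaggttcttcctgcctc
C1qc, chr4:136892865-136893164, minus strand: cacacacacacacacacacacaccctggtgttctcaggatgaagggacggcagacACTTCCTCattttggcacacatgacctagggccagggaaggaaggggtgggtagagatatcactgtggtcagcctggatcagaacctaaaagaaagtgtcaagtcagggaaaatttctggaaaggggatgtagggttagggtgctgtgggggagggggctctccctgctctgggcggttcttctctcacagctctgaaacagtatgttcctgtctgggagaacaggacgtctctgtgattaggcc
C1qc held the PU.1 motif 195 bases before its start, read on the other strand as ACTTCCTC, and C1qb held none of the 6 motifs. PU.1 is a transcription factor of the myeloid lineage.

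The lectin pathway genes Mbl1 and Mbl2, which encode mannose-binding lectins A and C, were each called in 1 age comparison, Mbl2 higher and Mbl1 lower. Mbl2 ranged at 12 weeks from 8.85 to 9.28 (median 9.09) in LF/HF offspring and from 8.94 to 9.77 (median 9.31) in HF/HF offspring, and 9.00 to 9.59 (median 9.43) and 8.90 to 9.72 (median 9.30) at 28 weeks. Mbl2 was higher at 28 weeks in LF/HF offspring, by 0.34 (SE 0.11, adjusted p = 0.145 from limma) in 8 of 9 mice, and was at 0.04 (SE 0.11) in HF/HF offspring, with a difference between the diets of -0.30 (95% interval -0.62 to 0.01). Mbl1 ranged at 12 weeks from 8.41 to 8.84 (median 8.55) in LF/HF offspring and from 7.997 to 8.99 (median 8.75) in HF/HF offspring, and 7.94 to 8.73 (median 8.49) and 7.90 to 8.89 (median 8.36) at 28 weeks. Mbl1 was called lower in HF/HF offspring, at -0.28 (SE 0.13, adjusted p = 0.68 from limma), and was at -0.16 (SE 0.13) in LF/HF offspring. The Mbl1 call ended without any of 11 HF/HF mice, replicates 1, 2, 5 and 7 of 12 weeks and 1, 2, 3 and 5 to 8 of 28 weeks, with values of -0.28 to -0.21. It also ended in each array series alone, and the Mbl2 call ended in series 1 alone. Masp1 and Masp2, the proteases that bind these lectins, were not called in any comparison.

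Among the receptors, Cd93 and C3ar1 were called with age in HF/HF offspring. Cd93 is a membrane glycoprotein of endothelial and myeloid cells, once described as a C1q receptor. Cd93 ranged at 12 weeks from 3.95 to 4.48 (median 4.26) in LF/HF offspring and from 4.17 to 5.12 (median 4.37) in HF/HF offspring, and 3.90 to 4.75 (median 4.16) and 3.65 to 4.29 (median 4.06) at 28 weeks. Cd93 was lower at 28 weeks in 9 of 9 HF/HF mice relative to the 12-week mean, by -0.43 (SE 0.13, adjusted p = 0.327 from limma), and was at 0.03 (SE 0.13) in LF/HF offspring. The HF/HF call ended in array series 2 alone. The 5 markers of sinusoidal endothelium were all lower with age in both diets. Clec4g was called in HF/HF offspring, where 2.33% of all probe sets were called lower. Lyve1 and Pecam1 were called in LF/HF offspring, where 3.92% were called lower. The summed intensity of the 5 markers was 472 to 642 at 12 weeks and 359 to 522 at 28 weeks in HF/HF offspring. In LF/HF offspring it was 577 to 751 and 406 to 612. The part of these markers in Cd93 was not tested.

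C3ar1 encodes the receptor for the anaphylatoxin C3a and is expressed by macrophages. C3ar1 ranged at 12 weeks from 4.13 to 4.56 (median 4.36) in LF/HF offspring and from 4.11 to 6.18 (median 4.48) in HF/HF offspring, and 3.63 to 4.71 (median 4.29) and 3.59 to 4.95 (median 4.22) at 28 weeks. Its value with age in HF/HF offspring, -0.43 (SE 0.20, adjusted p = 0.666 from limma), rested on replicate 3 of 12 weeks at 6.18, without which it was -0.18 (SE 0.16). The call ended without the 3 mice with muscle markers too, also at -0.18. It also ended without replicate 7 of 12 weeks or replicates 2, 4, 5, 7 or 9 of 28 weeks, and in array series 1 alone. C5ar1, the receptor for C5a, was the only complement gene with a mean level under the median of all probe sets. It was not called with all mice, but was called with age in LF/HF offspring in array series 2 alone.

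**Figure D3:**
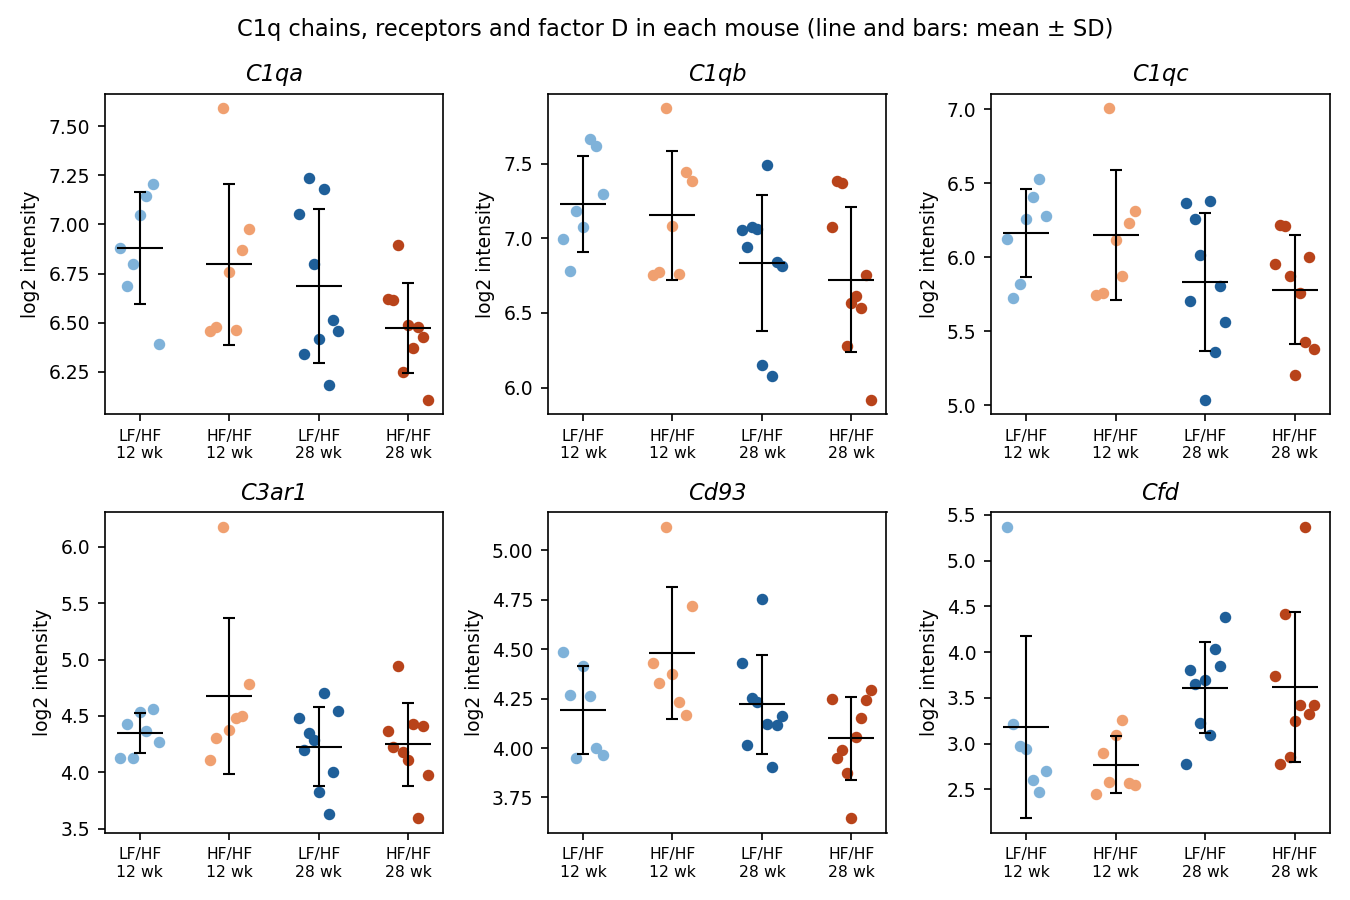
Log2 intensity of C1qa, C1qb, C1qc, C3ar1, Cd93 and Cfd in each mouse (points), by group on the horizontal axis, with a line at the mean and bars for 1 SD (n = 7 mice per group at 12 weeks and 9 at 28 weeks). The highest point of the 12-week HF/HF group is the same mouse, replicate 3, for the C1q chains, C3ar1 (6.18) and Cd93 (5.12), and the vertical scale differs between panels.

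With all mice, none of the 7 inhibitors of complement was called in any comparison. Cd59a was called with age in HF/HF offspring in array series 1 alone. Clu, or clusterin, which keeps the attack complex soluble, ranged at 12 weeks from 11.45 to 11.67 (median 11.57) in LF/HF offspring and from 11.45 to 11.73 (median 11.59) in HF/HF offspring, and 11.15 to 11.64 (median 11.35) and 11.34 to 11.65 (median 11.54) at 28 weeks. With age Clu was lower by -0.17 (SE 0.07) and Vtn (vitronectin), which acts at the same step, by -0.17 (SE 0.06) in LF/HF offspring, both under the 1.2-fold limit, with adjusted p = 0.302 and 0.221 from limma. In HF/HF offspring they were at -0.08 (SE 0.07) and -0.09 (SE 0.06). Factor I (Cfi), C4bp and the C1 inhibitor Serping1 had log2 fold changes between -0.08 and 0.12 with age. The membrane inhibitors Cd55 and Cd59a were between -0.20 and 0.22. Cd59a and its copy Cd59b can share probe signal. The 13 genes given without group medians (Masp1, Masp2, Cfb, Cfp, C7, C8g, Cfi, C4bp, Serping1, Vtn, Cd55, Cd59a and C5ar1) lay between -0.20 and 0.20 with age in LF/HF and between -0.29 and 0.22 in HF/HF offspring.

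The question of the study was whether the parental diet altered expression in the offspring liver. Of the 31 complement genes, 1 was called at 12 weeks, where 2.92% of all probe sets were, and 0 at 28 weeks, where 2.15% were. At 12 weeks 16 of the 31 were higher and 15 lower in HF/HF offspring, with a median log2 fold change of 0.0039, against 0.00039 over all probe sets. Cd93 was the 1 gene called, at 0.29 (SE 0.14, adjusted p = 0.999 from limma), and 6 of 7 HF/HF mice exceeded the average of LF/HF. Replicate 3 of HF/HF at 5.12 was the highest mouse of that group, and without it the value was 0.18 (SE 0.13). Without the 3 mice with muscle markers it was 0.23 and not called, and it was not called in either array series alone, at 0.33 (SE 0.21) and 0.21 (SE 0.18). The call also ended without replicate 7 of HF/HF or replicates 3, 6 or 7 of LF/HF, with values of 0.18 to 0.26. Cfd was at -0.41 (SE 0.35), and at -0.05 (SE 0.29) without replicate 1 of LF/HF. In series 1 Cfd was at -1.10 (SE 0.48) and past the criterion, and in series 2 at 0.11 (SE 0.40). C3ar1 was at 0.33 (SE 0.22), and at 0.08 without replicate 3, and Mbl2 was at 0.19 (SE 0.12). At this age 5 of 5 markers of sinusoidal endothelium were lower in HF/HF offspring, with Lyve1 called at -0.38. Of 9 Kupffer cell markers, 6 were higher with 0 called. Calls of either direction were made in 2.92% of all probe sets.

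At 28 weeks 15 of the 31 were higher and 16 lower, with a median of -0.010, against -0.0036 over all probe sets, and 0 reached P under 0.05 in limma. The smallest P belonged to C1ra at -0.17 (SE 0.08), C6 at 0.21 (SE 0.12) and Clu at 0.11 (SE 0.07). Without replicate 2 of HF/HF, C6 was at 0.28 (SE 0.11) and past the criterion. The array series gave different values for C8b, at -0.40 (SE 0.12) in series 1, past the criterion there, and 0.12 (SE 0.14) in series 2, against -0.14 (SE 0.10) pooled, and for C6, at 0.04 (SE 0.16) and 0.37 (SE 0.16), the latter past the criterion. For the RNA of the central proteins the intervals were narrow. The diet difference of C3 was 0.07 (95% interval -0.03 to 0.17) at 12 and 0.03 (95% interval -0.06 to 0.11) at 28 weeks, that of C4b 0.07 (-0.08 to 0.22) and 0.11 (-0.02 to 0.24), and that of Hc 0.07 (-0.06 to 0.21) and 0.09 (-0.03 to 0.20). The C1q chains were between -0.08 and -0.01 at 12 and between -0.21 and -0.05 at 28 weeks, with intervals reaching from -0.52 to 0.40. At 28 weeks 8 of 9 Kupffer cell and 4 of 5 sinusoidal endothelium markers were lower in HF/HF offspring. In each of these lists 1 marker was called lower, where 2.15% of all probe sets were called in either direction. Their part in the complement values was not tested.

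Of 10 hepatocyte genes of the acute-phase response outside the complement set, 10 had higher values in HF/HF offspring at 12 weeks, with a median of 0.32, and 5 were called, among them Saa1 at 1.25 and Lcn2 at 1.19, where 2.92% of all probe sets were called. None of the 10 reached an adjusted p under 0.05 in limma, and 0 were called at 28 weeks.

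**Figure D4:**
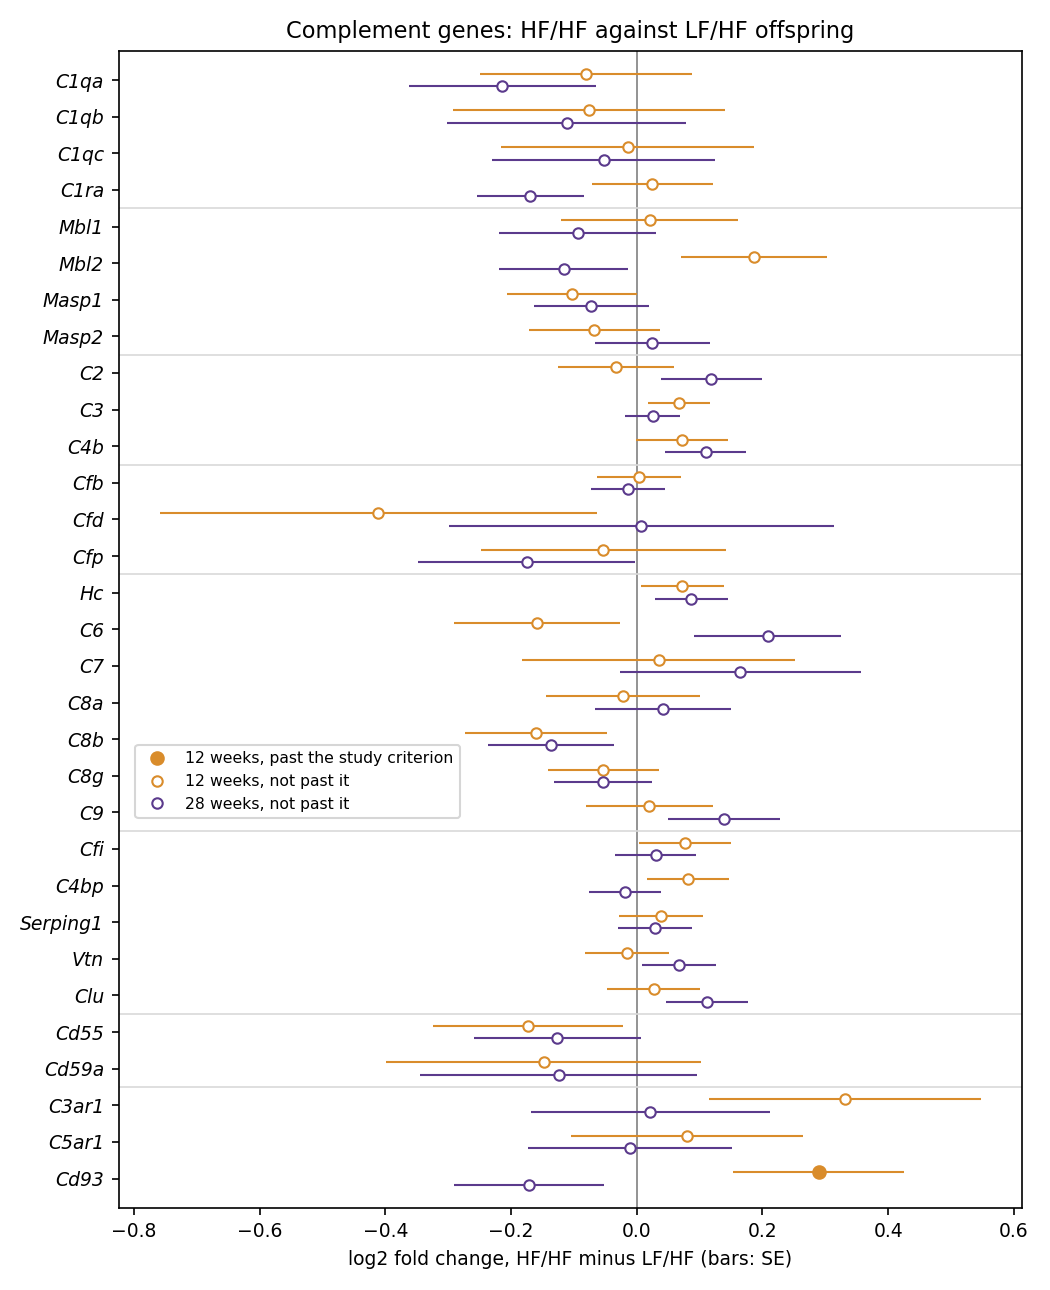
Log2 fold change of HF/HF against LF/HF offspring for the 31 complement genes (vertical axis, grouped by role) at 12 weeks (orange) and 28 weeks (purple), with bars for the standard error and filled points for genes past the criterion of the study. Cd93 at 12 weeks, at 0.29, is the only filled point.

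The difference of the diet effect between the ages was called for 2 of the 31 genes, where 4.19% of all probe sets were called. This contrast equals the difference of the age effects between the diets. Cd93 moved from 0.29 at 12 to -0.17 at 28 weeks, a difference of -0.46 (SE 0.18, adjusted p = 0.974 from limma). The difference was -0.35 (SE 0.17) without replicate 3 of the 12-week HF/HF offspring, and -0.65 (SE 0.28) and -0.21 (SE 0.24) within the array series. C6 moved from -0.16 to 0.21, a difference of 0.37 (SE 0.18, adjusted p = 0.974 from limma), with 0.19 (SE 0.24) and 0.55 (SE 0.25) within the array series. The C6 call was lost without any of 19 of the 32 mice, at values of 0.30 to 0.37, and it was 0.38 and not called without the 3 mice with muscle markers. These 19 were replicates 2, 3, 4 and 7 of LF/HF and 3 to 6 of HF/HF at 12 weeks, and replicates 1, 3, 5, 7 and 9 of LF/HF and 3 to 7 and 9 of HF/HF at 28 weeks.

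Across mice, 12 relations of single genes were computed on deviations from the group means, so that diet and age did not enter (n = 32 mice, permutation of mice within groups, two-sided, p-values adjusted over the 12). The chains of C1q lay close together. C1qa and C1qb had r = 0.79 (rho = 0.77), C1qa and C1qc r = 0.79 (rho = 0.77) and C1qb and C1qc r = 0.85 (rho = 0.87), each with a permutation p = 1e-05, the smallest these permutations can give, and adjusted p = 2.4e-05. C1qa also followed Csf1r, the receptor that maintains macrophages, at r = 0.74 (rho = 0.75, permutation p = 1e-05, adjusted p = 2.4e-05), and Clec4f at r = 0.65 (rho = 0.65, permutation p = 0.0004, adjusted p = 0.0008). Mice with more C1qa signal were those with more signal of these macrophage markers.

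Among hepatocyte genes, C8a and C8b had r = 0.82 (rho = 0.74, permutation p = 1e-05, adjusted p = 2.4e-05). Without the 2 mice farthest from the median of C8a it was 0.68. C6 and C9 had r = 0.59 (rho = 0.55, permutation p = 0.00078, adjusted p = 0.00117), and C3 and Cfb r = 0.59 (rho = 0.54, permutation p = 0.00066, adjusted p = 0.00113). The 8 relations so far held in both array series, with r between 0.53 and 0.89, and without the 2 farthest mice, with r between 0.49 and 0.85.

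The other 4 relations did not pass. C3 and C4b had r = 0.26 (rho = 0.20, permutation p = 0.161, adjusted p = 0.204), and C3 and the acute-phase gene Saa1 r = 0.24 (rho = 0.26, permutation p = 0.187, adjusted p = 0.204). Mbl1 and Mbl2 had r = -0.25 (rho = -0.19, permutation p = 0.224, adjusted p = 0.224). Cfd and Adipoq, the adipocyte gene of adiponectin, had r = 0.27 (rho = 0.14, permutation p = 0.174, adjusted p = 0.204), and r = 0.04 without the 2 mice farthest from the median of Cfd.

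**Figure D5:**
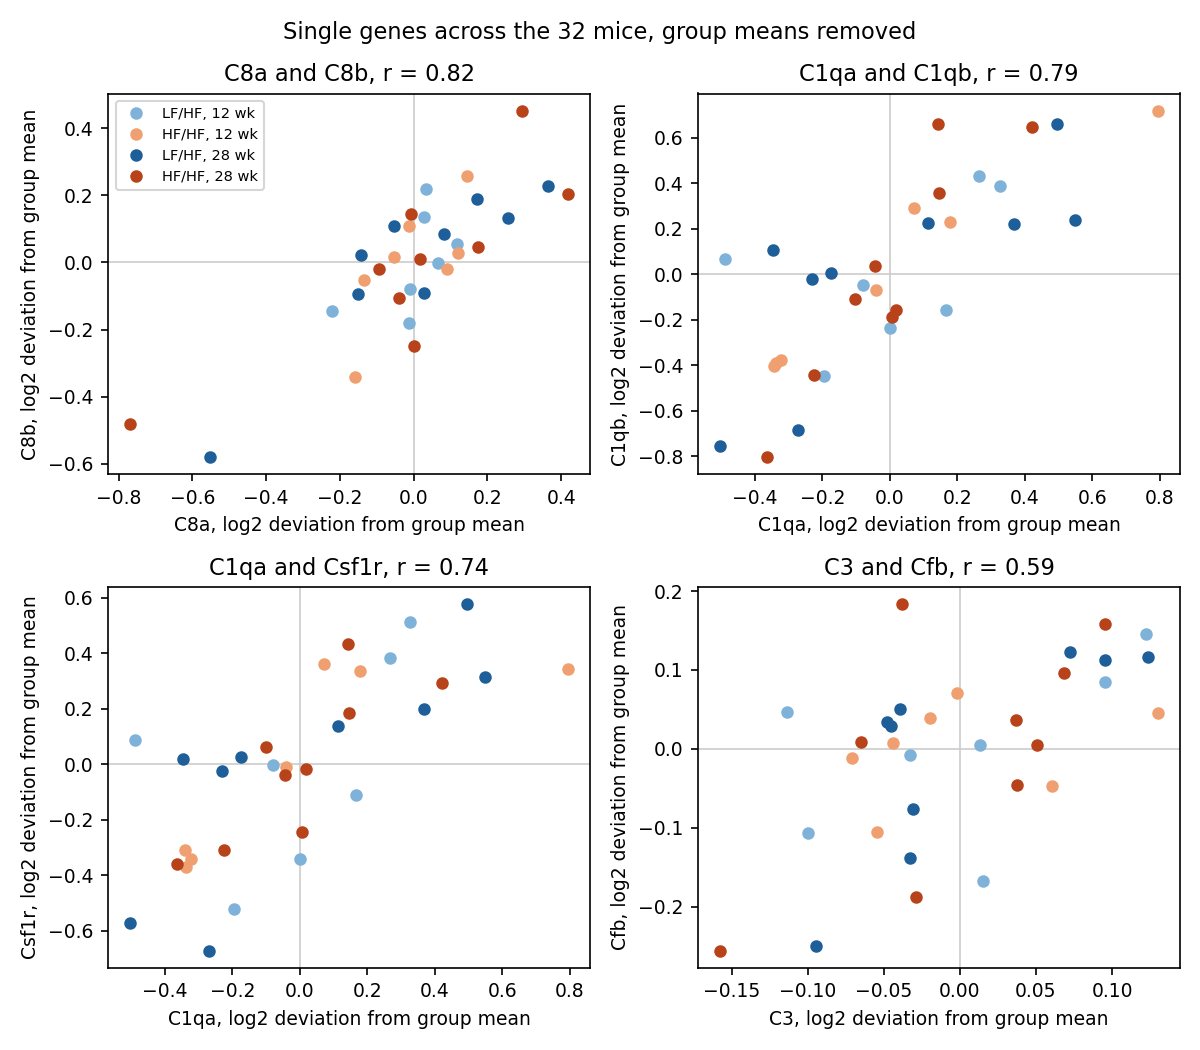
Log2 deviation from the group mean for 4 pairs of genes, with 1 point per mouse (n = 32) coloured by group. C8a and C8b (r = 0.82), C1qa and C1qb (r = 0.79), C1qa and Csf1r (r = 0.74) and C3 and Cfb (r = 0.59) rise together, and 2 mice of 28 weeks lie far to the lower left for C8a and C8b.

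Other complement genes were examined as a wider list. Of 31 such genes, 28 were measured, among them C1s1, Cpb2, ficolins, collectins and the integrin chains of complement receptors. With age 0 were called in LF/HF offspring, where 7.22% of all probe sets were, with 12 higher and 16 lower. In HF/HF offspring 1 was called, where 4.1% of all probe sets were, with 17 higher and 11 lower. That gene was Vsig4, the C3b receptor of Kupffer cells, at -0.48 (adjusted p = 0.451 from limma). Vsig4 was also the 1 gene of this list called by diet, at -0.37 in HF/HF offspring of 28 weeks (adjusted p = 0.934 from limma). In that comparison 2.15% of all probe sets were called. The medians with age were -0.03 and 0.02 over the 28 genes, against -0.15 in each diet over the 31 complement genes of the set.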

How the data were processed

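Liver RNA of 32 mice was measured on Mouse Gene 1.1 ST arrays (Affymetrix). The authors summarized and normalized the probe signals by robust multichip average, and the deposited table holds linear intensity values per probe set. The genome build of the files is not given in the sources used here. Intensities were log2 transformed and fitted in limma 3.58.1 (R 4.3.3) with group means as coefficients, all arrays together, and moderated variances with a trend. The study's test was paired, but the pairs are not given, so the fit was unpaired. Within-series values came from a second deposited table of the same arrays. Relations were tested by permutation in Python 3.11.15 with scipy 1.17.1, and the gene fit was tested on simulated data. The 12 columns of the authors' own comparisons were not used. The 31 genes, the 10 marker and pathway lists and the tests were chosen with earlier results of these data known. Values by group are given for 18 genes: those called in any comparison, the 3 of smallest P in each, and C3, C4b, Hc and the C1q chains. The other 13 are given by ranges. Alternatives covered thresholds, variance trend, array series, replicate block, loess normalization, array weights, low-signal filtering, the arrays fitted and leaving out mice. Promoters are from RefSeq (GRCm38.p6). No probe-level background was analysed here. C1qa, C2, C4b, Cfb, Cfi, Masp1, Serping1, Clu and Cd93 have no promoter printed or searched.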

Additional observations from a re-analysis of the deposited data

Results flagged for a closer look

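Of 124 sets of 1 gene in 1 group, 11 held a mouse far from the others of its group by Dixon's criterion, which chance gives in a share of about 0.05. Mbl2 was 9.00 in replicate 4 of the 28-week LF/HF offspring, with the next mouse at 9.39. Cfd was 5.37 in replicate 1 of the 12-week LF/HF offspring, with the next at 3.21. Hc was 10.68 in replicate 4 of the 28-week HF/HF offspring, with the next at 10.33. C7 was 2.93 in replicate 1 of the 12-week HF/HF offspring, with the next at 3.72.

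C8 chains gave 5 such values. C8a was 10.15 in replicate 6 of the 12-week LF/HF offspring, with the next at 10.36, and 9.25 in replicate 2 of the 28-week HF/HF offspring, with the next at 9.92. C8b was 9.78 in replicate 9 of the 28-week LF/HF offspring, with the next at 10.27. C8g was 11.11 in replicate 6 of the 12-week LF/HF offspring, with the next at 10.88, and 10.54 in replicate 2 of the 28-week LF/HF offspring, with the next at 10.83. In replicate 3 of the 12-week HF/HF offspring, Cd55 was 3.82 with the next at 4.22, and C3ar1 was 6.18 with the next at 4.78.

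The difference of the diet effect between the ages was called for C6, at 0.37, and for Cd93, at -0.46, at an unadjusted P in limma. In this contrast 4.19% of all probe sets were called, and 0 of 21115 reached an adjusted p under 0.05.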

How the results depend on the processing

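The count of complement genes called by diet at 12 weeks was 1 and became 0 at a fold over 1.5, at an adjusted p under 0.05, with the replicate block, with the array series as a block, in series 2 alone, with only the arrays compared and without the mice with muscle markers, and was 0 to 1 leaving out each mouse. In series 1 alone it was 1, but that gene was Cfd, and neither series alone kept Cd93. At 28 weeks it was 0 and became 1 in series 1 alone and 1 in series 2 alone (0 to 1 leaving out each mouse). For the difference between the ages it was 2 and became 0 at a fold over 1.5 or an adjusted p under 0.05, and 1 without the variance trend, with the replicate block, with the series as a block, in series 1 alone, with array weights and without the muscle mice (1 to 3 leaving out each mouse). With age in LF/HF offspring it was 6, against 10 with no fold threshold, 2 at a fold over 1.5, 4 at an adjusted p under 0.05, 4 in series 1 alone, where C8a and Mbl2 were lost, and 10 in series 2 alone (6 to 8). With age in HF/HF offspring it was 11, against 14 with no fold threshold, 1 at a fold over 1.5 and 1 at an adjusted p under 0.05. It was 7 in series 1 alone and 8 in series 2 alone, where C2 and C6 were among the calls lost (7 to 12 leaving out each mouse). With no fold threshold, limma P was under 0.05 in 2575 of all 21115 probe sets with age in LF/HF and 1521 in HF/HF offspring. At an adjusted p under 0.05, 0.786% and 0.0474% of all probe sets were called. For the other settings named here, shares over all probe sets are not given, so those changes in count cannot be set against them. The causes of the changes were not tested.

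The median of the 31 values per mouse gave -0.15 for diet at 28 weeks, -0.11 for its difference between the ages and 0.034 for age in LF/HF offspring, where the mean gave -0.02, -0.01 and -0.14. Leaving out each mouse, the mean ranged from -0.028 to 0.020 and from -0.039 to 0.0068 for diet at 12 and 28 weeks, from -0.035 to 0.013 for their difference, and from -0.16 to -0.12 and -0.17 to -0.13 for age in LF/HF and HF/HF offspring.

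Of the 20 single-gene calls, 15 were kept with the replicate block, 16 with the series as a block, 11 in series 1 and 13 in series 2 alone, 19 with loess, 16 with array weights, 17 without the trend, 20 among probe sets at or above the median level and 15 without the muscle mice, and no call reversed. Same-numbered mice had correlations of -0.16 to 0.10 in their deviations, so a shared number went with little shared deviation. Whether the numbers mark pairs is not given in the sources used here and cannot be settled from these correlations. The block says nothing of effect size. The number of arrays limits the precision.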
